A study of Mus musculus with 35 samples.

Results

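The 10 genes described here are germline genes of the mouse that are best known as targets of promoter DNA methylation outside the germline: Dazl, Ddx4, Mael, Asz1, Stk31, Sycp1, Sycp3, Hormad1, 4930447C04Rik and Tex101. They were chosen by gene symbol, and each was found once among the 54446 genes of the expression table. Their levels were followed in 27 bulk RNA-seq libraries, 3 for each of 9 groups, as TPM, a transcript level that is scaled to transcript length and to the total of the library. DNA methylation itself was not analysed here, so the name of the group is background and was not tested.

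Germline genes of this kind share CpG-rich promoters that gain DNA methylation when the epiblast passes through implantation. Before and beside methylation, a Polycomb complex named PRC1.6 represses many of them, and it meets DNA through the E2F6 protein and through the pair MGA and MAX. The genes are switched on again in primordial germ cells, where the promoters lose methylation, and their products then serve meiosis and the defence against transposons.

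All samples were labelled wild-type. The in vitro cells were EpiLC, epiblast-like cells made from embryonic stem cells (ESCs) in 48 h of FGF2 and Activin A and taken as formative, and 3 kinds of primed epiblast stem cell (EpiSC). The 2D EpiSCs came, by their label, from ESCs that were converted with FGF2 and Activin A, and the FA medium of the study had bFgf2 at 12 ng/ml with Activin-A at 20 ng/ml. The ESC-derived 3D EpiSCs and the embryo-derived 3D EpiSCs, which were started from E5.5 epiblasts, sat in Matrigel in FAXN medium. This medium had bFgf2 at 12 ng/ml, Activin-A at 50 ng/ml, Noggin, which blocks BMP signals, at 150 ng/ml, and XAV939, which blocks tankyrase, at 5 µM. Origin and genetic background changed together between the 3D cultures, and medium and dimension changed together between 3D and 2D. Between embryo-derived 3D and 2D EpiSCs, all of these changed together. The untreated embryos were of both sexes and labelled as CD-1, and the study's methods also name the reporter lines Pdgfrα:H2B-GFP, for E4.5 embryos, and LifeAct-GFP, among the E5.5 embryos from which EpiSCs were derived. By these methods, the E4.5 epiblast was picked by hand as the GFP-negative cells of the Pdgfrα:H2B-GFP line. Which other libraries carried a reporter is not known here. The E3.5 inner cell mass was cut out by laser and the E4.5 epiblast was picked after immunosurgery, with 10 embryos in each library, and each library of E5.5, E6.5 or E7.5 epiblast pooled 3 to 5 embryos. Nothing states that replicates came from separate cultures, so the spread between libraries may be technical.

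Values in vitro and in vivo were not compared by a test, since the former came from poly-A RNA with 8 PCR cycles and the latter from total RNA with 13 PCR cycles, so that kit and origin cannot be told apart. Between 22215 and 24438 genes were above 0 TPM in the in vitro libraries and between 20324 and 26751 in the in vivo libraries, and the depth behind them is not known from TPM. The labelled cell types were checked by marker genes. Pou5f1, the defining factor of pluripotent cells, lay between 241 and 1936 TPM in every group. The embryo libraries also held trophoblast markers, highest at E3.5 and E4.5 and higher again at E7.5, and endoderm markers at every stage. The values of both stand beside the results they touch. The replicates 1 and 2 of ESC-derived 3D EpiSCs, 1 and 2 of 2D EpiSCs, and 2 and 3 of embryo-derived 3D EpiSCs differed by a median of less than 0.1 on the log2 scale, less than the other pairs, and they were averaged as an alternative.

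The promoters show what the 10 genes have in common in sequence. For each gene the RefSeq window (build GRCm38.p6) of 300 bases, 250 before and 50 after the start site nearest to the start of the gene in the files, was read. The windows had a median of 22.5 CpG sites, with 15 in Sycp3 and 38 in Ddx4. The ratio of observed to expected CpG was 0.765 at the median. It was 0.384 at the median over all 32851 windows and 0.842 over the 10995 windows that were CpG-rich by the rule given next. Of the members, 9 of 10 members had a ratio of at least 0.6 with at least 50% G+C, the exception being 4930447C04Rik at 0.597. Genes known for promoter methylation tend to be known for such promoters, so this describes the list and tests nothing.

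A pair of short motifs was searched on both strands. CACGTG, the E-box that MGA and MAX bind and that reads the same on both strands, was in 7 of 10 windows, against 7.15% of all windows and 11.5% of the CpG-rich ones. TCCCGC, the core of the E2F6 site, was in 5 of 10 windows, against 19.98% of all windows and 45.2% of the CpG-rich ones, and the same 5 windows (Ddx4, Mael, Sycp1, Sycp3 and Hormad1) held both. No match of one motif overlapped a match of the other. The windows of Dazl, Asz1 and Tex101 held neither. A match is no evidence of binding, and the windows of Tex101 and 4930447C04Rik lie 4625 and 23009 bases inside the longest gene models of the files.

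Upstream sequences are shown for 5 members, Mael, Hormad1 and Sycp3 with both motifs, Stk31 with the E-box alone and Asz1 with neither, so that they can be set beside the levels below. Motif matches are in capitals, and the sequences run 5′ to 3′ on the strand of the gene and stop before the first annotated exon. They are Mael (chr1:166238748-166238994, minus strand, 247 bases), Hormad1 (chr3:95559427-95559676, plus strand, 250 bases), Sycp3 (chr10:88459337-88459568, plus strand, 232 bases), Stk31 (chr6:49395354-49395603, plus strand, 250 bases) and Asz1 (chr6:18109062-18109311, minus strand, 250 bases).
Mael: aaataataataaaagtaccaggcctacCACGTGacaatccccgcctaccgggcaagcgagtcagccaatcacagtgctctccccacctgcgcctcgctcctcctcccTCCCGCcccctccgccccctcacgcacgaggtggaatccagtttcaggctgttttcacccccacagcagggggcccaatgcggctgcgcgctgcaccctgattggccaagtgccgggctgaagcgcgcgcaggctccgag
Hormad1: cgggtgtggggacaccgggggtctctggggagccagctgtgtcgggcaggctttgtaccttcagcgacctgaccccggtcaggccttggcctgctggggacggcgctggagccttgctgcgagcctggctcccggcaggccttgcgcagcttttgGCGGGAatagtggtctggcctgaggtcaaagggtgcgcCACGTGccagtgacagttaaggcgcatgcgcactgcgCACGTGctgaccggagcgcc
Sycp3: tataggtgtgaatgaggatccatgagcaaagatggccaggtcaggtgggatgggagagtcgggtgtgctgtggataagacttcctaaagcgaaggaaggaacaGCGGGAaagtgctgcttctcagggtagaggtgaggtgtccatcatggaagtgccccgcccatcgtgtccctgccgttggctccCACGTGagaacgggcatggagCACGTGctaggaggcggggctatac
Stk31: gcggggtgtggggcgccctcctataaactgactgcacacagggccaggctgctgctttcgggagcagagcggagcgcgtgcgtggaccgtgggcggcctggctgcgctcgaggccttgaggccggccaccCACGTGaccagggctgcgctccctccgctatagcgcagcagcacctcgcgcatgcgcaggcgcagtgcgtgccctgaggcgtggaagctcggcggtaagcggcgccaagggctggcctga
Asz1: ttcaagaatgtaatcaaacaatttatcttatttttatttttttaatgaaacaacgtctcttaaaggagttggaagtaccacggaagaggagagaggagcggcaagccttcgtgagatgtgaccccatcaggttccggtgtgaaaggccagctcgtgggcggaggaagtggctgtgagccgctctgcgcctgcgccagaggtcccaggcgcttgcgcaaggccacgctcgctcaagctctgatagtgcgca
In Hormad1 the E-boxes begin 57 and 20 bases before the start site, and in Sycp3 they begin 64 and 43 bases before it. The single E-box of Mael is farther away, 223 bases before the start, and that of Stk31 begins 120 bases before it.

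**Figure D1:**
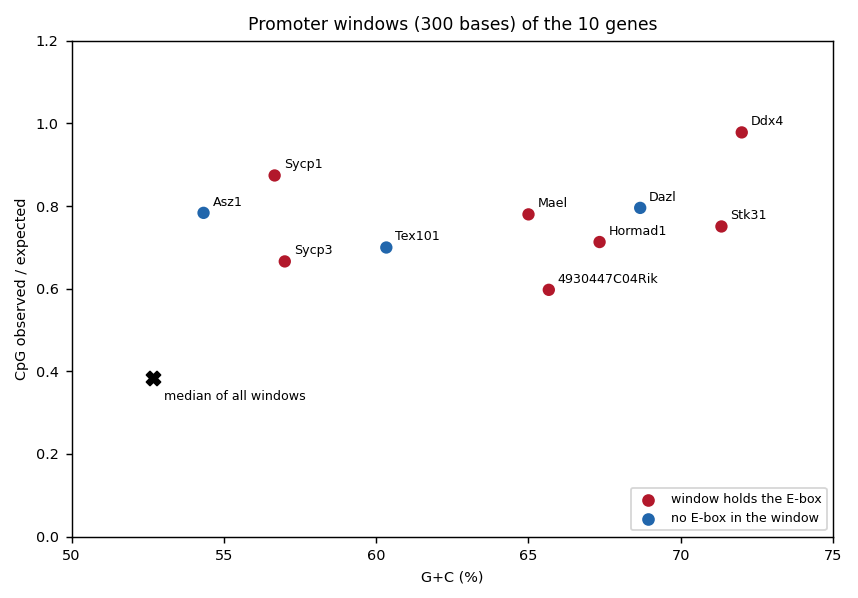
G+C content (x axis, percent) against the ratio of observed to expected CpG (y axis) in the 300-base promoter window of each of the 10 genes, coloured by whether the window holds the E-box, with the median of all 32851 windows as a cross. All 10 points lie above that median ratio of 0.384, and the 3 windows without the E-box are spread among the others.

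In culture, each of the 10 genes had its highest level in formative cells, and most were at or near 0 in primed cells. Their summed level was 157 ± 1.46 TPM in EpiLCs, 8.50 ± 0.454 TPM in ESC-derived 3D EpiSCs, 4.56 ± 1.18 TPM in 2D EpiSCs and 0.229 ± 0.0367 TPM in embryo-derived 3D EpiSCs (mean ± SD, n = 3). For each of the 10, the lowest EpiLC library was above the highest library of any EpiSC group. Full separation from EpiLCs, in either direction, was common over all genes. Of the 11541 genes tested below, 7788 were apart between 2D EpiSCs and EpiLCs. Against EpiLCs, 5811 were apart in ESC-derived and 7370 in embryo-derived 3D EpiSCs. Mael, Hormad1 and Asz1 were listed at 0 in all 9 EpiSC libraries, and 7 of the 10 stayed below 1 TPM in all 9.

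The genes fall into 4 roles. Dazl (chr17:50279395-50293636) encodes an RNA-binding protein that germ cells need to enter their programme. Its EpiLC libraries held 11.6, 12.3 and 15.1 TPM, one ESC-derived 3D library held 0.0702 TPM, and the other 8 EpiSC libraries were listed at 0. Ddx4 (chr13:112598333-112652475), the germ cell RNA helicase also named Vasa, stood at 13.6, 9.39 and 10.3 TPM in EpiLCs and at no more than 0.140 TPM in any EpiSC library. Both genes thus separated EpiLCs from every other culture.

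Mael (chr1:166201201-166238747) and Asz1 (chr6:18050964-18109061) act in the piRNA pathway that silences transposons, and Stk31 (chr6:49395604-49469501) is a Tudor domain protein of germ cells. Mael was among the most abundant members in EpiLCs, at 23.7, 34.5 and 32.4 TPM. Stk31 stood at 6.63, 6.48 and 5.96 TPM in EpiLCs, and of the EpiSC libraries only replicate 1 of the ESC-derived 3D cells was above 0, at 0.057 TPM. Asz1 was low even in EpiLCs, at 0.925, 1.08 and 0.161 TPM. Relative to their mean, the EpiLC libraries varied more for Asz1 than for Mael or Stk31.

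Sycp1 (chr3:102818499-102936100), Sycp3 (chr10:88459569-88473236), Hormad1 (chr3:95559677-95587671) and 4930447C04Rik (chr12:72881109-72940774), also named Six6os1, build the synaptonemal complex or the chromosome axis in meiosis. Hormad1 had the same pattern as Mael, with 14.7, 27.4 and 21.9 TPM in EpiLCs and 0 in all EpiSC libraries. The other 3 were the members that kept a level in primed cells. Sycp3 held 25.2, 21.4 and 18.9 TPM in EpiLCs, 2.17, 1.84 and 0.714 TPM in ESC-derived 3D EpiSCs, 0.443, 0.525 and 1.02 TPM in 2D EpiSCs and 0.217, 0.201 and 0.271 TPM in embryo-derived 3D EpiSCs.

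4930447C04Rik had the highest level of the members in EpiLCs, at 56.7, 37.3 and 46.6 TPM. It then read 6.06, 6.04 and 6.94 TPM in ESC-derived 3D EpiSCs, 1.598, 2.34 and 3.27 TPM in 2D EpiSCs and 0 in the 3 embryo-derived 3D libraries, so that none of the 4 groups overlapped. Sycp1, the transverse filament, was lower in EpiLCs (4.51, 4.30 and 5.29 TPM) and had another order below them, with 1.45, 1.36 and 1.32 TPM in 2D EpiSCs, 0.550, 0.342 and 0.574 TPM in ESC-derived 3D EpiSCs and 0 in embryo-derived 3D EpiSCs. Its groups did not overlap either. Tex101 (chr7:24668007-24676675), a surface glycoprotein of germ cells, reached 0.946, 1.36 and 0.673 TPM in EpiLCs and was above 0 in only 1 EpiSC library, a 2D library at 0.114 TPM.

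**Figure D2:**
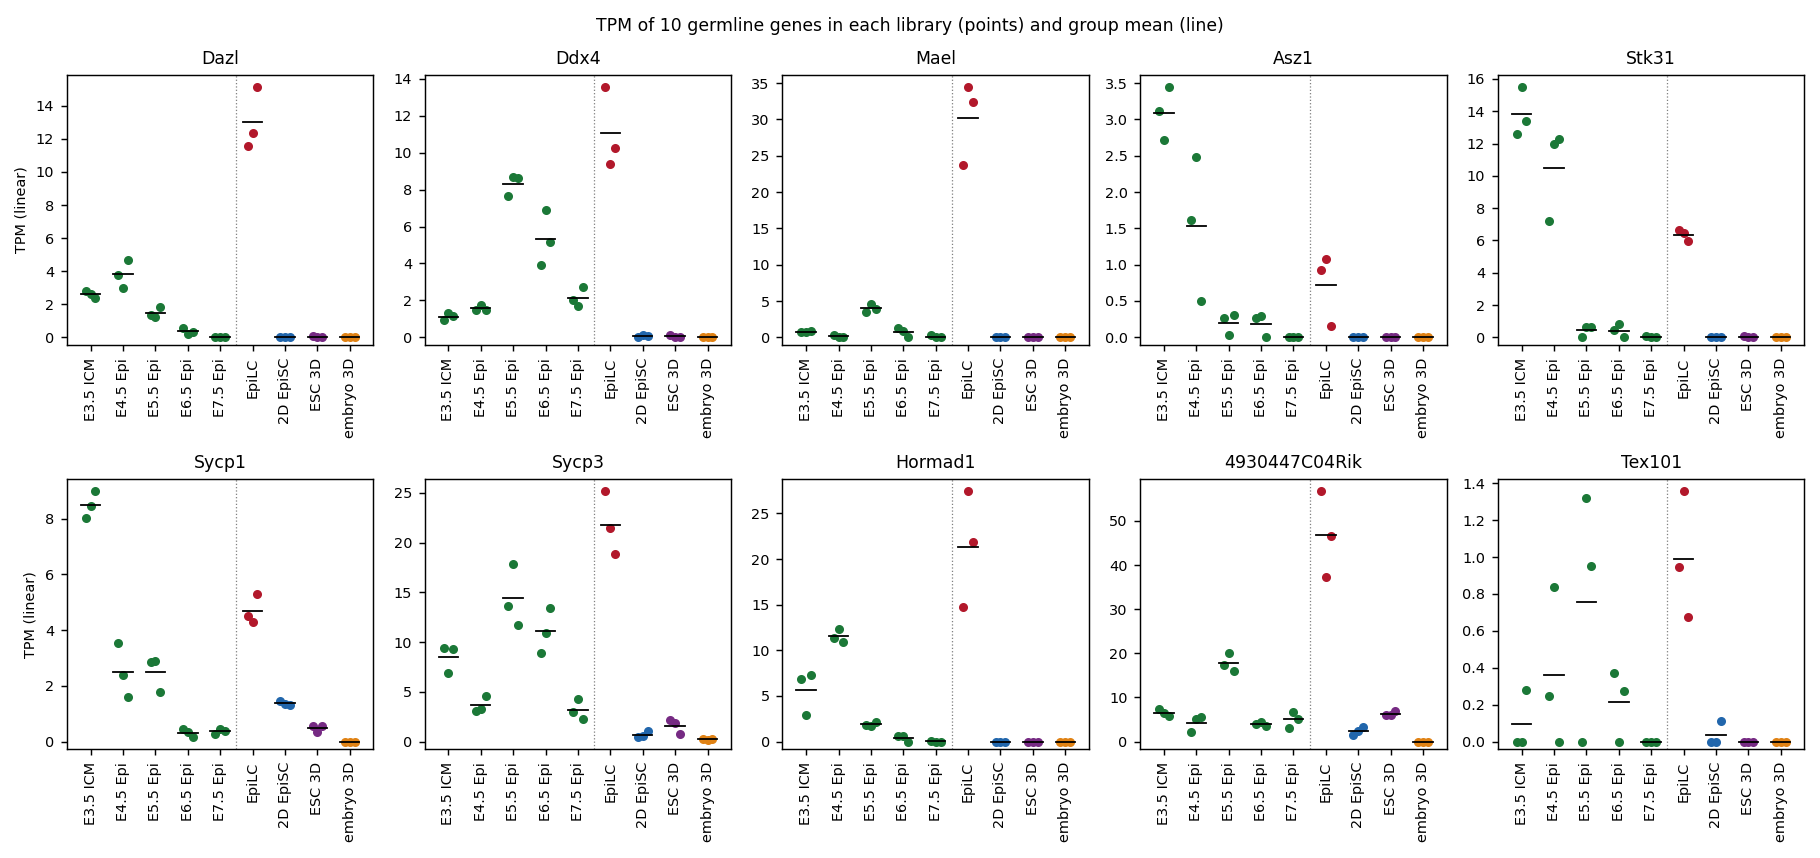
TPM (y axis, linear, own scale per gene) of each of the 10 genes in each library (points) with the group mean (line), for the 5 embryo groups left of the dotted line and the 4 cultures right of it. In every panel the EpiLC points stand above those of the 3 EpiSC cultures, and the embryo stage with the highest mean differs between genes.

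The differences were tested with limma on log2(TPM + 1). The fit held 11541 protein-coding genes of the autosomes that exceeded 2 TPM in 3 or more of the 12 in vitro libraries. Calls needed a difference above 1 on the log2 scale and an adjusted p (Benjamini-Hochberg) under 0.05. Of the 10 members, 8 passed this filter, and 6 of them (Dazl, Ddx4, Mael, Sycp1, Hormad1 and Stk31) passed only through the EpiLC libraries and so had to differ. The count is therefore given as a description. All 8 were called lower in 2D EpiSCs than in EpiLCs, where 5.14% of the genes tested were called lower, with differences in log2(TPM + 1) from -4.95 (Mael, SE 0.118) to -1.26 (Sycp1, SE 0.0949). All 8 were also called lower in ESC-derived 3D EpiSCs (7.11% of genes tested) and in embryo-derived 3D EpiSCs (8.28% of genes tested). The median difference of the 8 was -3.79, -3.35 and -4.00 in these comparisons, against 0.18, 0.01 and 0.10 over the genes tested. The 3 comparisons share the EpiLC libraries.

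Asz1 and Tex101 did not pass the filter. In a fit of all 20774 autosomal protein-coding genes, the difference of Asz1 from EpiLCs was -0.74 (SE 0.182) in each comparison, with limma adjusted p between 0.0109 and 0.0147. Tex101 differed by -0.98 (SE 0.104) in both 3D cultures and by -0.93 in 2D EpiSCs, and neither gene reached the difference of 1 needed for a call. The other 8 members were called lower in this fit too.

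The genes with a mean in both groups can be given as ratios. Mean TPM was 7.39 times as high in EpiLCs as in ESC-derived 3D EpiSCs for 4930447C04Rik, 9.62 times for Sycp1 and 13.8 times for Sycp3. Against 2D EpiSCs the same genes stood at 19.5, 3.41 and 32.9 times. Sycp1 thus had the smallest ratio to 2D EpiSCs and 4930447C04Rik the smallest to ESC-derived 3D EpiSCs.

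**Figure D3:**
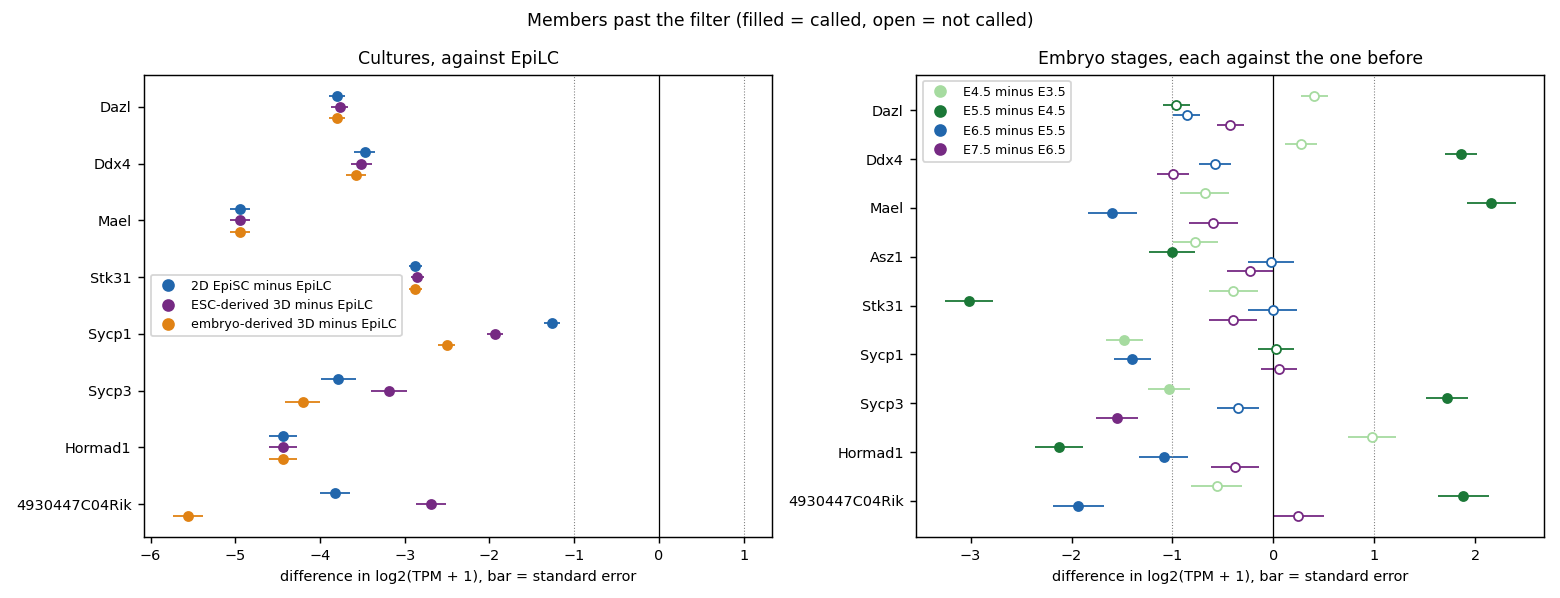
Difference in log2(TPM + 1) with its standard error (x axis) for the members past the filter (y axis), on the left for the 3 EpiSC cultures against EpiLCs and on the right for each embryo stage against the stage before. Filled points were called and open points were not. All points on the left lie below -1, and those on the right go both ways at E5.5, where 4 genes are filled on the positive side and 3 on the negative side.

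Among the primed cultures, the differences were few and concerned the meiotic chromosome genes. Between ESC-derived 3D EpiSCs and 2D EpiSCs 1 member was called higher, 4930447C04Rik (difference 1.14, SE 0.177, adjusted p = 0.000539), where 0.633% of genes tested were called higher. The call was lost without replicate 1 of the 2D EpiSCs, the lowest 2D library, with a difference of 0.96. Sycp1 (difference -0.68, adjusted p = 0.000276) and Sycp3 (difference 0.60, adjusted p = 0.0363) did not reach the size needed.

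Between embryo-derived 3D EpiSCs and 2D EpiSCs, 2 members were called lower (7.75% of genes tested): 4930447C04Rik (difference -1.74, SE 0.177, adjusted p = 2.7e-05) and Sycp1 (difference -1.25, SE 0.0949, adjusted p = 3.25e-06), both listed at 0 in the embryo-derived libraries. Sycp3 differed by -0.42 (adjusted p = 0.149). Origin, genetic background, medium and dimension cannot be told apart in this comparison. Between the 3D cultures, 4930447C04Rik (difference 2.87, SE 0.177, adjusted p = 1.37e-06) and Sycp3 (difference 1.02, SE 0.209, adjusted p = 0.00734) were called higher in the ESC-derived cells, where 1.98% of genes tested were called higher. These comparisons share libraries with each other. The Sycp3 call was lost without replicate 1 or replicate 2 of the ESC-derived 3D EpiSCs, with differences of 0.84 and 0.92, and with the near-identical replicates averaged. 4930447C04Rik overlaps Six6 and Sycp3 overlaps Chpt1, each on the opposite strand, and the kits keep the strand, but whether the counting used it is not stated.

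Other germline genes from lists of known function were mostly lower in the same cultures than in EpiLCs. Against EpiLCs, 9 of 10 tested genes of the synaptonemal complex, chromosome axis and meiotic recombination were called lower in 2D EpiSCs, and 10 of 10 in each 3D culture. Of these 10 genes, 8 passed the filter only through EpiLC libraries and so had to differ, which makes the count a description, and the share of all genes called lower was 5.14% for 2D EpiSCs, 7.11% for ESC-derived and 8.28% for embryo-derived 3D EpiSCs. Syce1, a central element protein of the synaptonemal complex, had a mean of 18.2 TPM in EpiLCs and was listed at 0 in all 3 EpiSC groups. Of 12 tested genes of a further germline list, 11 were called lower in 2D EpiSCs and 12 in each 3D culture, with Rpl10l, a testis copy of a ribosomal protein gene, at a mean of 59.8 TPM in EpiLCs and 0 in 2D EpiSCs. Of these 12 genes, 7 passed only through EpiLC libraries, Rpl10l among them. The lists were chosen with earlier results of these data known.

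The piRNA list was mixed. Of its 14 tested genes, 9 were called lower than in EpiLCs in each EpiSC culture, among them Fkbp6 (mean 21.1 TPM in EpiLCs and 0 in all 3 EpiSC groups) and Tex19.1 (42.1 TPM in EpiLCs and 0.347 TPM in 2D EpiSCs). Of the 14, 7 passed the filter only through EpiLC libraries, Fkbp6 and Tex19.1 among them. The share of all genes called lower was 5.14% for 2D EpiSCs, 7.11% for ESC-derived and 8.28% for embryo-derived 3D EpiSCs. The called genes that were higher numbered 2 in 2D EpiSCs and 3 in each 3D culture. Of the 11541 genes tested, 1756 were called higher in 2D EpiSCs, so the count there was near the share of all genes. In ESC-derived 3D EpiSCs 615 were called higher, and in embryo-derived 3D EpiSCs 1215. Among the higher piRNA genes were Tdrd7, at 0.691 TPM in EpiLCs and 10.8 TPM in 2D EpiSCs, and Tdrkh, at 4.11 and 11.4 TPM. Both are Tudor proteins and both were named after their values were seen. Of 5 meiotic initiation genes only Gm4969 passed the filter, through EpiLC libraries alone, and it was called lower in all 3 cultures (difference -1.56 in 2D EpiSCs).

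The methylation machinery was measured in the same libraries. Of 8 genes for DNA methylation writers, readers of hemimethylated DNA and erasers, Dnmt3l, a cofactor of the de novo enzymes, was called lower than in EpiLCs in all 3 cultures, with a mean of 154 TPM in EpiLCs and 0.390 TPM in 2D EpiSCs. It too passed the filter only through EpiLC libraries. Dnmt3a, a de novo methyltransferase, was also called lower in all 3, with 188 to 577 TPM in EpiLCs, a wide spread, and 48.8 to 80.3 TPM in 2D EpiSCs. Dnmt3b, the other de novo methyltransferase, stood at a mean of 1305 TPM in EpiLCs and 918 TPM in 2D EpiSCs and was not called. Of the remaining genes, Tet1 was called lower in ESC-derived 3D EpiSCs, Tet3 higher in embryo-derived 3D EpiSCs and Tet2 higher in 2D EpiSCs. In vivo, 2 of the 8 were called higher and 2 lower at E5.5 than at E4.5, against 14.9% and 9.47% of genes tested. Among them Dnmt3l was lower (difference -4.04, limma adjusted p = 8.45e-11) and Dnmt3b higher (difference 2.32, limma adjusted p = 5.33e-11). The trophoblast markers given below changed at this step as well. Of 16 tested repressors of germline genes, 2 were called lower in each culture than in EpiLCs: Dnmt3l, which is on both lists, with Pcgf6, a subunit of PRC1.6, in 2D EpiSCs (difference -1.01) or Atf7ip, a partner of the histone methyltransferase Setdb1, in the ESC-derived (difference -1.43) and embryo-derived (difference -1.32) 3D cultures. Over all genes tested, 5.14% were called lower in 2D EpiSCs, 7.11% in ESC-derived and 8.28% in embryo-derived 3D EpiSCs. Without Dnmt3l, the count of repressors called was near that share. Whether any of these levels bears on the members was not tested.

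Markers of other cell types were read in the same libraries, and their part in the members' levels was not tested. The summed level of 9 primordial germ cell markers was 203 to 242 TPM in EpiLCs and 29.0 to 102 TPM in the EpiSC libraries, and most of the EpiLC sum was Ifitm3 at 176 to 215 TPM. Nanos3 and Prdm14, defining genes of primordial germ cells, were at most 0.307 and 0.0517 TPM in EpiLCs. Other markers of the list stood higher in EpiLCs, with Dppa3 at 6.82 to 10.3 TPM and Dnd1 at 7.28 to 10.03 TPM, while the EpiSC libraries held at most 0.0942 TPM of Dppa3 and 2.66 TPM of Dnd1. Of 6 tested markers, 4 were called lower than in EpiLCs in ESC-derived 3D EpiSCs, 3 were lower and 1 higher in embryo-derived 3D EpiSCs, and 3 were lower and 3 higher in 2D EpiSCs. Of the 11541 genes tested, 7.11%, 8.28% and 5.14% were called lower in these cultures, and 615, 1215 and 1756 were called higher. Dppa3 passed the filter only through EpiLC libraries. The endoderm markers summed to 1.81 to 2.21 TPM in EpiLCs and 47.5 to 61.9 TPM in 2D EpiSCs, and the trophoblast markers to 4.27 to 7.08 TPM and 22.6 to 32.4 TPM. In bulk libraries, fewer cells that transcribe a gene and less RNA in each cell cannot be told apart.

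In the embryo, the members did not move as one group. Their summed level was 50.7 ± 2.69 TPM in the E3.5 inner cell mass, 39.9 ± 4.37 TPM at E4.5, 51.7 ± 6.36 TPM at E5.5, 22.9 ± 2.32 TPM at E6.5 and 10.9 ± 2.19 TPM at E7.5 (mean ± SD, n = 3). Within this sum, Asz1, Stk31 and Sycp1 were highest at E3.5, Dazl and Hormad1 at E4.5, and 4930447C04Rik, Ddx4, Mael, Sycp3 and Tex101 at E5.5. In each of the first 5 the highest stage stood clear of the next, and of the last 5 it did so in 4930447C04Rik, Ddx4 and Mael. Separation of neighbouring stages, in either direction, was common over all genes. Of the 11880 genes tested, 6963 were apart between E3.5 and E4.5 and 7626 between E4.5 and E5.5. Between E5.5 and E6.5, 3718 were apart, and between E6.5 and E7.5, 7458 were. At the in vitro end, the sum in EpiLCs was above that of any embryo stage, a difference that cannot be told apart from the library kits.

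**Figure D4:**
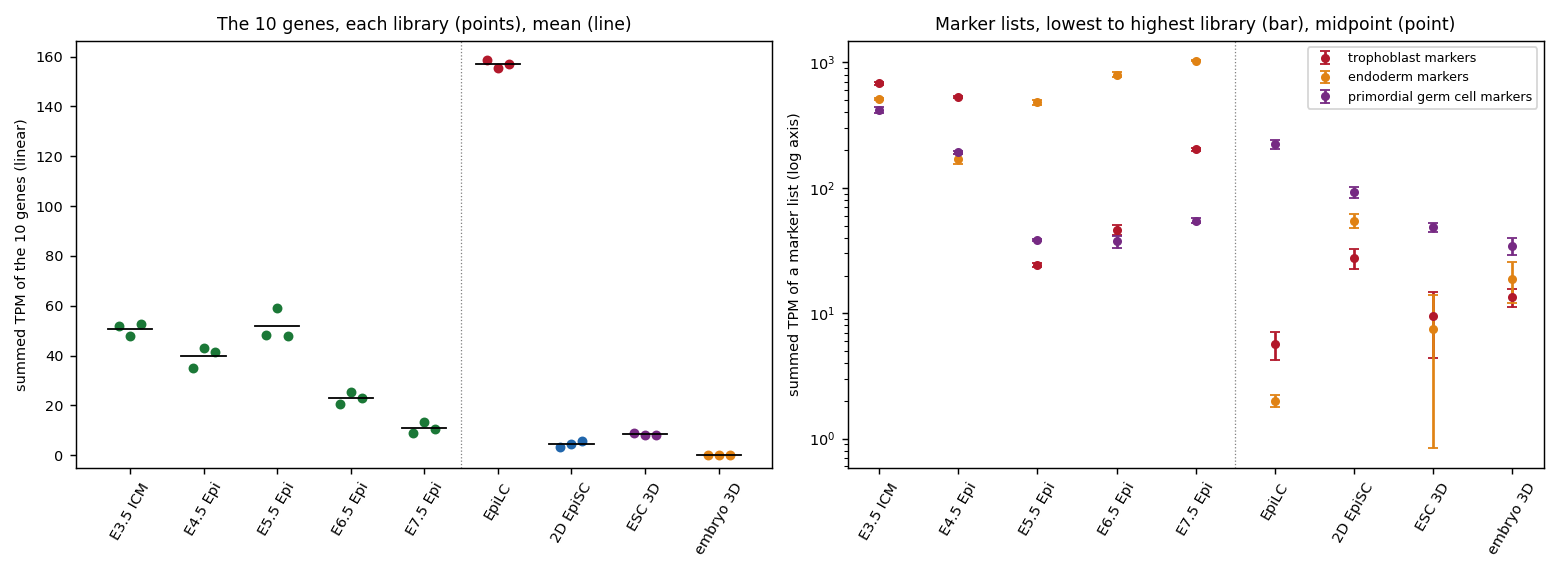
Left, summed TPM of the 10 genes (y axis, linear) in each library (points) with the group mean (line). Right, summed TPM (y axis, log) of 3 marker lists in the same groups, from the lowest to the highest library (bar) with the midpoint (point). The 3 EpiLC libraries lie between 156 and 158 on the left, and the trophoblast markers on the right lie between 519 and 698 at E3.5 and E4.5 and between 23.4 and 25.4 at E5.5.

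Stk31, Hormad1, Asz1 and Dazl had a pre-implantation level that fell away. Stk31 stood at 12.6, 15.5 and 13.4 TPM at E3.5, at 7.22, 11.96 and 12.3 TPM at E4.5 and at 0, 0.618 and 0.655 TPM at E5.5. Hormad1 read 6.85, 2.95 and 7.27 TPM at E3.5, 11.4, 12.4 and 10.9 TPM at E4.5 and 1.77, 1.70 and 2.17 TPM at E5.5. Neither gene overlapped between E4.5 and E5.5. Dazl went from 3.75, 2.98 and 4.68 TPM at E4.5 to 1.33, 1.22 and 1.80 TPM at E5.5, then to at most 0.535 TPM at E6.5 and 0 in the 3 E7.5 libraries.

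Mael, Ddx4, Sycp3 and 4930447C04Rik did the opposite at the same step. Mael was above 0 in 1 of the E4.5 libraries, at 0.357 TPM, and stood at 3.44, 4.62 and 3.88 TPM at E5.5. Ddx4 went from 1.47, 1.75 and 1.46 TPM to 7.64, 8.66 and 8.62 TPM. Sycp3 went from 3.08, 3.31 and 4.55 TPM to 13.6, 17.8 and 11.8 TPM. 4930447C04Rik went from 2.27, 5.14 and 5.51 TPM to 17.2, 20.2 and 15.999 TPM, so in each of these 4 genes the lowest E5.5 library was above the highest E4.5 library. Between these stages 7626 of the 11880 genes tested were apart in either direction, and Mael passed the filter given below only through E5.5. Ddx4 passed that filter only through E5.5 to E7.5.

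The in vivo fit held 11880 genes, and 9 members passed its filter, of which Mael passed only through E5.5 and so had to be higher there. Stk31, Asz1 and Dazl exceeded 2 TPM only at E3.5 and E4.5, and Ddx4 only at E5.5 to E7.5. The filter thus favoured their direction from E4.5 to E5.5, and the calls at this step are a description. From E4.5 to E5.5 the 4 genes above were called higher (14.9% of genes tested): Mael by 2.16 (SE 0.242), 4930447C04Rik by 1.88 (SE 0.251), Ddx4 by 1.86 (SE 0.158) and Sycp3 by 1.72 (SE 0.207) on the log2(TPM + 1) scale, with limma adjusted p between 2.31e-07 and 1.91e-05. Stk31 (difference -3.01, SE 0.240), Hormad1 (difference -2.12, SE 0.239) and Asz1 (difference -1.001, SE 0.227) were called lower (9.47% of genes tested). The Asz1 call was lost without replicate 1 or 2 of E4.5, or replicate 2 of E5.5, where the difference lay between -0.94 and -0.73. Dazl (difference -0.96, adjusted p = 2.67e-05) fell short of the size needed and was called at a pseudocount of 0.1, with rescaled TPM, and without replicate 2 of E4.5 or replicate 3 of E5.5. Sycp1 differed by 0.03 (SE 0.181, adjusted p = 0.906). The median difference of the 9 members was 0.03, against 0.16 over the genes tested.

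The composition of the libraries and their preparation changed at the same step. The 10 trophoblast markers summed to 666 to 698 TPM at E3.5, 519 to 542 TPM at E4.5 and 23.4 to 25.4 TPM at E5.5, and 8 of the 8 tested were called lower at E5.5. Elf5, a defining trophoblast gene, stood at 124 to 130 TPM at E4.5 and 2.86 to 5.06 TPM at E5.5. The 10 endoderm markers summed to 155 to 187 TPM at E4.5 and 459 to 502 TPM at E5.5, with Ttr, a product of visceral endoderm, at 80.0 to 89.5 TPM at E5.5 and at most 2.52 TPM before. RNA of E3.5 and E4.5 was fragmented for 6 min at 85 °C and later RNA for 4 min at 94 °C. The part of the markers in the members' change was not tested, and stage and fragmentation cannot be told apart.

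From E3.5 to E4.5, 2 members were called lower (11.9% of genes tested). Sycp1 went from 8.02, 8.47 and 8.98 TPM to 3.53, 2.38 and 1.58 TPM (difference -1.48, SE 0.181, adjusted p = 1.27e-05). Sycp3 went from 9.42, 6.86 and 9.28 TPM to the E4.5 values above (difference -1.04, SE 0.207, adjusted p = 0.000822), close to the threshold of 1. That call was lost with rescaled TPM and without replicate 1 or 3 of E3.5 or replicate 1 or 2 of E4.5, with the smallest difference at -0.95. Hormad1 differed by 0.98 (adjusted p = 0.00343) in the other direction and was called with rescaled TPM and without replicate 1 or 3 of E3.5 or replicate 3 of E4.5. Between these stages the trophoblast sum went from 666 to 698 TPM down to 519 to 542 TPM, and the endoderm sum from 506 to 520 TPM down to 155 to 187 TPM. The trophoblast markers did not move together, with 3 of 8 tested called higher at E4.5 and 2 lower. Cdx2 went from 157 to 168 TPM down to 22.2 to 26.3 TPM, and Elf5 from 47.3 to 53.7 TPM up to 124 to 130 TPM.

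From E5.5 to E6.5 the stated preparation was the same, and 4 of the 9 members tested were called lower, where 0.48% of the genes tested were. Mael passed the filter only through E5.5, so that its lower level here was built in and the count is a description. Sycp1 and Hormad1 exceeded 2 TPM only at E3.5 to E5.5, so the filter favoured a lower level at E6.5 for them too. 4930447C04Rik went to 3.89, 4.38 and 3.49 TPM (difference -1.93, SE 0.251, adjusted p = 0.000382). Mael went to 1.30, 0.912 and 0 TPM (difference -1.60, SE 0.242, adjusted p = 0.00117), and this call was lost at a pseudocount of 0.1. Sycp1 went from 2.86, 2.90 and 1.79 TPM to 0.469, 0.343 and 0.161 TPM (difference -1.40, SE 0.181, adjusted p = 0.000373), and Hormad1 went to 0.570, 0.571 and 0 TPM (difference -1.09, SE 0.239, adjusted p = 0.0118). The Hormad1 call was lost without replicate 3 of E6.5, with a difference of -0.87. The median difference of the 9 was -0.86, against -0.06 over the genes tested. The endoderm markers summed to 459 to 502 TPM at E5.5 and 767 to 832 TPM at E6.5, and their part was not tested.

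Sycp3 and Ddx4 kept most of their E5.5 level at E6.5. Sycp3 held 8.93, 10.9 and 13.4 TPM there, overlapping its E5.5 libraries (difference -0.35, adjusted p = 0.314). Ddx4 held 3.92, 6.91 and 5.16 TPM (difference -0.58, adjusted p = 0.0319). By their means, 11.1 and 5.33 TPM, they were the highest of the 10 members at E6.5, and the libraries of Ddx4 overlapped those of 4930447C04Rik.

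From E6.5 to E7.5, Sycp3 was the 1 member called lower (1.94% of genes tested), at 2.94, 4.31 and 2.27 TPM (difference -1.55, SE 0.207, adjusted p = 4.22e-05). Ddx4 stood at 2.05, 1.67 and 2.72 TPM (difference -0.99, adjusted p = 0.00017), just short of the size needed, and was called with rescaled TPM or without replicate 1 or 3 of E6.5 or replicate 3 of E7.5. 4930447C04Rik stood at 3.14, 6.78 and 5.13 TPM (difference 0.25, adjusted p = 0.426). With Sycp3 and Ddx4 it made up the 3 members above 1 TPM at E7.5, while Asz1, Dazl and Tex101 were listed at 0 in all 3 libraries. The trophoblast sum was 198 to 209 TPM and the endoderm sum 1017 to 1043 TPM at E7.5. Much of this trophoblast sum was Hand1 at 77.7 to 84.5 TPM and Cdx2 at 54.3 to 59.0 TPM. Elf5 went the other way, from 4.59 to 5.06 TPM at E6.5 to at most 0.579 TPM at E7.5. Of 8 tested trophoblast markers, 5 were called higher and 1 lower, so the sum does not stand for every marker. The 10 markers of pluripotent epiblast summed to 2502 to 2895 TPM at E6.5 and 832 to 873 TPM at E7.5, with 7 of the 10 called lower, and their part in the levels of Sycp3 and Ddx4 was not tested.

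Across implantation as a whole, from E4.5 to E6.5, Sycp3 (difference 1.38, SE 0.207) and Ddx4 (difference 1.28, SE 0.158) were called higher (13.7% of genes tested). Hormad1 (difference -3.21), Stk31 (difference -3.02), Dazl (difference -1.82), Sycp1 (difference -1.37) and Asz1 (difference -1.03) were called lower (10.2% of genes tested), with adjusted p between 5.04e-08 and 0.0015. The Asz1 call was lost without replicate 1 or 2 of E4.5 or replicate 3 of E6.5. Stk31, Dazl and Asz1 exceeded 2 TPM only at E3.5 and E4.5, and Hormad1 and Sycp1 only at E3.5 to E5.5. Ddx4 exceeded it only at E5.5 to E7.5. The filter thus favoured the direction of these genes, and the calls are a description. 4930447C04Rik, which had been 4.13 times as high at E5.5 as at E4.5, differed by -0.05 between E4.5 and E6.5 (adjusted p = 0.877). Trophoblast markers were at 41.8 to 50.8 TPM at E6.5, and the fragmentation differed here as well.

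From E4.5 to E5.5, the synaptonemal and piRNA lists had calls in both directions, and the list of further germline genes had lower calls. Over all genes tested, 14.9% were called higher and 9.47% lower at this step, and the counts below are a description. Majin, of the synaptonemal list, passed the filter only through E4.5 and so had to be lower at E5.5. Of 9 tested synaptonemal and axis genes, 4 were called lower and 1 higher, with Stag3, a meiotic cohesin, at a mean of 38.0 TPM at E4.5 and 6.63 TPM at E5.5. Rec8, another meiotic cohesin, was listed at 0 at E4.5 and had a mean of 2.73 TPM at E5.5. Of 12 tested piRNA genes, 2 were called lower, Tex19.1 (83.2 to 96.9 TPM at E4.5 and 9.82 to 10.4 TPM at E5.5) and Piwil2 (8.19 to 11.7 TPM and 1.78 to 3.46 TPM), and 2 higher, Ddx25 and Tdrkh. Of 12 further germline genes 4 were called lower, among them Rpl10l. Gm4969 was not called, and of the 16 repressors Atf7ip and Ehmt1 were called higher and Dnmt3l lower.

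Genes outside the 10 with the most similar pattern were found by Pearson's r with the mean scaled profile of the members past the filter. Over the 12 in vitro libraries these were Arhgap30 (r = 0.997), Zfp985 (r = 0.996), Prss50 (r = 0.996), Gm17067 (r = 0.994) and Zfp992 (r = 0.994), which all had their highest level in EpiLCs. Prss50, a protease of the testis, stood between 34.8 and 42.4 TPM in EpiLCs and at no more than 1.13 TPM in the EpiSC libraries. Over the 15 in vivo libraries the most similar included Zfp345 (r = 0.952), Akap12 (r = 0.947), Cdh1 (r = 0.943) and Tuba3a (r = 0.937), which all had their highest level at E3.5. The members' own r with their mean profile ranged in vivo from 0.0617 for Ddx4 to 0.843 for Sycp1, and in vitro from 0.917 to 0.991. The libraries of a group share their preparation, so these r values are a description.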

How the data were processed

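The study's methods name cutadapt 2.4 for trimming, STAR for alignment to mm10, and StringTie with a GENCODE annotation for quantification. The authors deposited TPM values, which sum to 1000000 in each library and keep no record of depth, so no interval from counts is given. The 27 columns were matched to samples by name, lines of the same identifier (12 identifiers) were summed, and empty cells, on 56 lines, were counted as 0. The series lists 35 samples, of which 8 were not analysed here. The members, gene lists and tests were chosen with earlier results of these data known.

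Genes were autosomal and protein-coding with TPM above 2 in at least 3 libraries of a setting. The count model of the study needs counts, so limma 3.58.1 in R 4.3.3 was fitted to log2(TPM + 1), with all groups of a setting in a single fit, and calls needed an absolute difference above 1 with an adjusted p (Benjamini-Hochberg) under 0.05. Adjustment was over genes, not over the 11 comparisons. A difference on this scale understates the change of low genes. On simulated data the fit was tested before use. Of the list genes, those called with the 4 largest differences in a comparison could be named, and for similar patterns the 5 genes of highest r, of which 1 in vivo is not reported here. Motifs and CpG were read from RefSeq promoters with Python 3.11.15. Brme1 and Tdrd15 were not matched by symbol. Replicate numbers did not pair the libraries.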

Additional observations from a re-analysis of the deposited data

Results flagged for a closer look

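For 2 members the difference between 3D and 2D EpiSCs depended on the origin of the 3D culture, by the limma test of the difference itself, which equals the comparison of the 3D cultures since both are set against the same 2D libraries. For 4930447C04Rik the ESC-derived minus the embryo-derived effect was 2.87 on the log2(TPM + 1) scale (adjusted p = 1.37e-06), with all 3 ESC-derived libraries above all 3 embryo-derived libraries. For Sycp3 it was 1.02 (adjusted p = 0.00734), again with no overlap, and over the alternatives the adjusted p ranged from 0.000197 to 0.13. Origin and genetic background of the 3D cultures cannot be told apart.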

How the results depend on the processing

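Of 50 calls of a member in a comparison, 43 were kept under every alternative run and 7 were lost under at least 1, and 11 differences that were not called became calls under at least 1. No difference of these members changed direction. The 8 members lower than in EpiLCs were called in each of the 3 comparisons under every alternative. Of these 8, 6 passed the filter only through EpiLC libraries and so had to differ. Their count against EpiLCs, here and with the replicate block below, is therefore a description.

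With a pseudocount of 0.1 the number of members called was 3 for ESC-derived 3D against 2D EpiSCs (1 in the report) and 3 for E7.5 against E6.5 (1 in the report), the latter at 2 with rescaled TPM. With near-identical replicates averaged it was 1 for ESC-derived against embryo-derived 3D EpiSCs (2 in the report), and in vivo no pair was near-identical, so that averaging had no value there. Leaving out each library in turn gave 0 to 1 members for ESC-derived 3D against 2D EpiSCs, 1 to 2 for ESC-derived against embryo-derived 3D EpiSCs, 1 to 3 for E4.5 against E3.5 and 1 to 2 for E7.5 against E6.5.

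The replicate numbers in the labels do not pair the libraries. Same-numbered libraries had a mean correlation of -0.0299 between their deviations from the group means in vitro and -0.0166 in vivo. With the replicate block, 8 members were called against EpiLCs in each culture and 7 at E5.5 against E4.5, the same counts as without it, and it changed no other count of members.

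TPM moves when other genes take a larger share of a library. The median of all genes tested was shifted by more than 0.1 in 7 of the 11 comparisons, from -0.21 (ESC-derived 3D against 2D EpiSCs) to 0.31 (E7.5 against E6.5). With rescaled TPM the genes called higher and lower went from 1756 and 593 to 1336 and 786 for 2D EpiSCs against EpiLCs, from 228 and 229 to 270 and 149 between the 3D cultures, and from 1265 and 231 to 736 and 382 for E7.5 against E6.5. For ESC-derived 3D against 2D EpiSCs they went from 73 and 1068 to 133 and 727, and to 129 and 1412 at a pseudocount of 0.1. Genes called higher and lower at E6.5 against E5.5 numbered 85 and 57, but 136 and 126 at a pseudocount of 0.1 and 125 and 191 with all gene types kept. Between the 3D cultures they numbered 374 and 345 at a pseudocount of 0.1 and 186 and 99 with near-identical replicates averaged, and for E7.5 against E6.5 they numbered 2041 and 324 with all gene types and 1648 and 354 at a pseudocount of 0.1. Depth is unknown, so a listed 0 gives no upper limit, and values near 1 TPM, as for Asz1 and Tex101, are the least precise.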
